A study of Arabidopsis thaliana with 40 samples.

Results

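A set of 10 genes of suberin biosynthesis was followed across roots and shoots of 5 Arabidopsis thaliana genotypes. They are GPAT5, FAR1, FAR4, FAR5, CYP86A1, CYP86B1, ASFT, KCS2, KCS20 and ABCG6, chosen by locus code for their known place in the pathway. They make up 10 of the 27655 loci in each abundance table. The choice was made with earlier results of these data known. Messenger RNA was sequenced from roots and from shoots collected separately, with 4 libraries per genotype and tissue and 40 libraries in all. The line bz1728 (also labelled bzip1728) carries the insertions SALK_004048 and SALK_132285, and its name stands for BZIP17 and BZIP28, membrane-tethered transcription factors of the response to unfolded proteins in the endoplasmic reticulum. The line nobiro6 is labelled as a suppressor mutant with bzip1728 and a further mutation, so by the labels both bzip insertions are shared by nobiro6 and bz1728. The T-DNA line nbr6-t1 (GABI_172C03) is known from the study as an allele of TAF12B, the gene also called NOBIRO6, and taf12-t1 (WiscDsLoxHs044_12E) carries an insertion allele of the paralogous gene TAF12; the labels list no bzip insertion for either. TAF12B and TAF12 are subunits of TFIID, which places RNA polymerase at promoters. Each mutant is represented by 1 line, and wt is Col-0. Seedlings of all genotypes grew on agar plates at 22 °C with 16 h of light and were harvested at an age that the labels state in one place as 12 d and in another as 13 days from sowing. The labels do not say whether the 4 replicates came from separate plantings, so the p-values measure the spread between these samples, which may be technical.

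Suberin is a polyester of fatty acids, glycerol and phenolics laid down against the inner face of the cell wall. In young roots it coats endodermal cells after the Casparian strip has formed, and in older roots it is a main component of the periderm, where it limits the passage of water, ions and gases. Its aliphatic monomers are made in the endoplasmic reticulum: fatty acids are elongated, oxidised at the far end or reduced to alcohols, joined to glycerol or to ferulic acid, and exported to the wall by ABC transporters, where extracellular enzymes link them.

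Promoters are shown first for GPAT5, FAR1 and ASFT, because all 3 genes changed with bz1728 and between them they hold every searched motif that occurred in the set. Each sequence is the 250 bases before the annotated start of the gene in RefSeq build TAIR10.1, written 5′ to 3′ on the strand of the gene. Both strands were searched for ACGTG, the core of the abscisic acid response element, and for TTGAC, the core of the W box bound by WRKY factors. Elements linked to bZIP factors of endoplasmic reticulum stress were searched as CCACG and, in a longer form that contains the first motif, as TGACGTG. The AC elements bound by MYB factors were searched as ACCTACC, then in a variant form as ACCAACC, and in another variant as ACCTAAC. Capitals mark these motifs, read on either strand.
GPAT5 (chr3:3595444-3595693, plus strand): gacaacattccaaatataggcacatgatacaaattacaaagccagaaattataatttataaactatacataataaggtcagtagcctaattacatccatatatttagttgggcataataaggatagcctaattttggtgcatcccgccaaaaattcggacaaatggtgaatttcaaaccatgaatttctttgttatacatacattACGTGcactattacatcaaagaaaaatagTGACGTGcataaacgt
FAR1 (chr5:7470078-7470327, plus strand): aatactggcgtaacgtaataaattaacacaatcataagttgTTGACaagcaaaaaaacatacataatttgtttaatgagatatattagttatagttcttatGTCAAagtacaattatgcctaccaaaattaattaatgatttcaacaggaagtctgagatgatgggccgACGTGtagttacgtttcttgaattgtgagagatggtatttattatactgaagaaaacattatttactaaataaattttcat
ASFT (chr5:16431054-16431303, plus strand): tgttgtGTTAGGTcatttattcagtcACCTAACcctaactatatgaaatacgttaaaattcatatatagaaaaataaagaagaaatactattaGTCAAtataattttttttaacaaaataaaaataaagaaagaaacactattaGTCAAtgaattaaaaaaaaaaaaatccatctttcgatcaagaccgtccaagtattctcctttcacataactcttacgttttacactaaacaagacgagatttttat

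In the GPAT5 promoter ACGTG lay 45 and 14 bases before the start, the nearer copy inside TGACGTG. FAR1 had ACGTG 81 bases before its start and TTGAC once on each strand. ASFT had ACCTAAC once on each strand and was the only member with an AC element. Across the set ACGTG was found in 3 of 10 promoters, against 22.9% of 27443 Arabidopsis promoters of the same length, and TTGAC in 6 of 10, against 44.9%. The CCACG element was found in 0 of 10, against 15% of all promoters, and TGACGTG in 1 of 10, against 2.9%. Any AC element was found in 1 of 10, against 6.12%. None of the motifs searched occurred in the windows of CYP86A1, KCS2 and KCS20. A match here describes the letters and does not show binding.

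Library totals in units of 1000000 counts ran from 2.66 to 8.2 in root (median 4.46) and from 3.42 to 12.9 in shoot (median 5.08), and the smallest root library gave 0.375 counts per 1000000 (CPM) for 1 count. All 10 members passed the filter on low counts in root, where 18745 loci were tested, and 5 passed in shoot, where 17382 were tested. The genes named in the labels were read as a check (CPM, mean ± SD, n = 4). BZIP17 was low in both bzip lines, at 4.85 ± 1.48 CPM in nobiro6 roots and 5.55 ± 1.15 CPM in bz1728 roots, against 51.7 ± 2.69 CPM in wt roots. In shoots it stood at 2.44 ± 1.06 CPM in nobiro6 and 2.80 ± 0.762 CPM in bz1728, against 29.0 ± 2.72 CPM in wt. BZIP28 had 0 counts in bz1728 roots and shoots, but in libraries labelled nobiro6 it stood at 13.9 ± 3.32 CPM in roots, against 71.7 ± 3.77 CPM in wt roots, and at 26.9 ± 3.26 CPM in shoots, against 34.5 ± 5.44 CPM in wt shoots. The lines nobiro6 and bz1728 thus differed in BZIP28 too. TAF12B was lower in nbr6-t1 shoots (14.2 ± 2.39 CPM) than in wt shoots (48.7 ± 5.07 CPM; log2 fold change -1.78, edgeR adjusted p = 3.4e-10), but not in roots labelled nbr6-t1 (58.8 ± 4.8 CPM) against wt roots (53.1 ± 5.32 CPM; 0.15, adjusted p = 0.2). TAF12 was lower in taf12-t1 shoots (6.97 ± 1.55 CPM) than in wt shoots (9.95 ± 0.975 CPM; -0.52, edgeR adjusted p = 0.0085), but higher in roots labelled taf12-t1 (20.6 ± 3.89 CPM) than in wt roots (10.2 ± 0.512 CPM; adjusted p = 8.8e-06). These 2 lines thus went with their labels in shoot and not in root, and the names nobiro6, nbr6-t1 and taf12-t1 stand for the labels of their libraries. The marker genes of green tissue summed to 29.7 to 124 CPM in root libraries, over all genotypes, and those of the endodermis to 447 to 707 CPM.

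In wt roots every member was expressed, and 8 of the 10 were nearly absent from wt shoots or far lower there. Levels per transcript length, in transcripts per 1000000 (TPM, mean ± SD, n = 4), were highest for the feruloyl transferase ASFT (207 ± 38.2), followed by the hydroxylase CYP86A1 (136 ± 14.8) and the elongase KCS2 (99.8 ± 18.2). KCS20 (78.8 ± 8.34), FAR1 (62.4 ± 10.2), ABCG6 (58.8 ± 9.69), FAR4 (54.3 ± 7.29), CYP86B1 (50.0 ± 5.63) and FAR5 (44.5 ± 7.69) came next, and GPAT5 was lowest (31.4 ± 3.53). From KCS2 down to FAR5, the ranges of mean ± SD of neighbours in this order overlapped. Those of ASFT and CYP86A1, of CYP86A1 and KCS2, and of FAR5 and GPAT5 did not.

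ABCG6 had 51.7, 54.1, 73.1 and 56.4 TPM in wt roots, against 0.217, 0, 0.0667 and 0.289 TPM in wt shoots, and GPAT5 had 26.9 to 34.5 TPM in wt roots, against 0.0744 to 0.255 TPM in wt shoots. The 5 members GPAT5, FAR4, FAR5, CYP86B1 and ABCG6 passed the filter of the 40-library fit through the root libraries, with 11 to 69 counts over the 4 wt shoot libraries, so their difference was given by the filter and is a description. The other 5 passed the shoot filter too, but CYP86A1 stood at only 1.34 ± 0.326 CPM in wt shoots. Its difference, 6.36 ± 0.30 on the log2 scale, is therefore also a description. ASFT was higher in wt roots than in wt shoots by 5.41 ± 0.19 on the log2 scale, KCS2 by 3.53 ± 0.27 and FAR1 by 0.99 ± 0.15 (largest edgeR adjusted p = 2.2e-07). FAR1 was the member with the highest wt shoot level among the 3 reductases, at 15.2 ± 4.85 TPM. KCS20 was lower in wt roots, by -1.09 ± 0.11 on the log2 scale (edgeR adjusted p = 2.8e-11). That call was lost on the TPM scale: KCS20 stood at 78.8 ± 8.34 TPM in wt roots and 80.3 ± 10.3 TPM in wt shoots, and on log2(TPM + 1) in limma the difference was -0.02 (adjusted p = 0.85). The TPM scale moved the median of all loci by 0.94 on the log2 scale in this comparison, and the share of called loci that were higher in wt roots came to 49.7% with TMM factors and 80.0% with TPM. The sizes given above for ASFT, KCS2 and FAR1 were taken with TMM factors and share this dependence on scale. In the whole comparison 79% of 20015 loci were called with 39.2% called higher in wt roots and 39.8% lower.

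**Figure D1:**
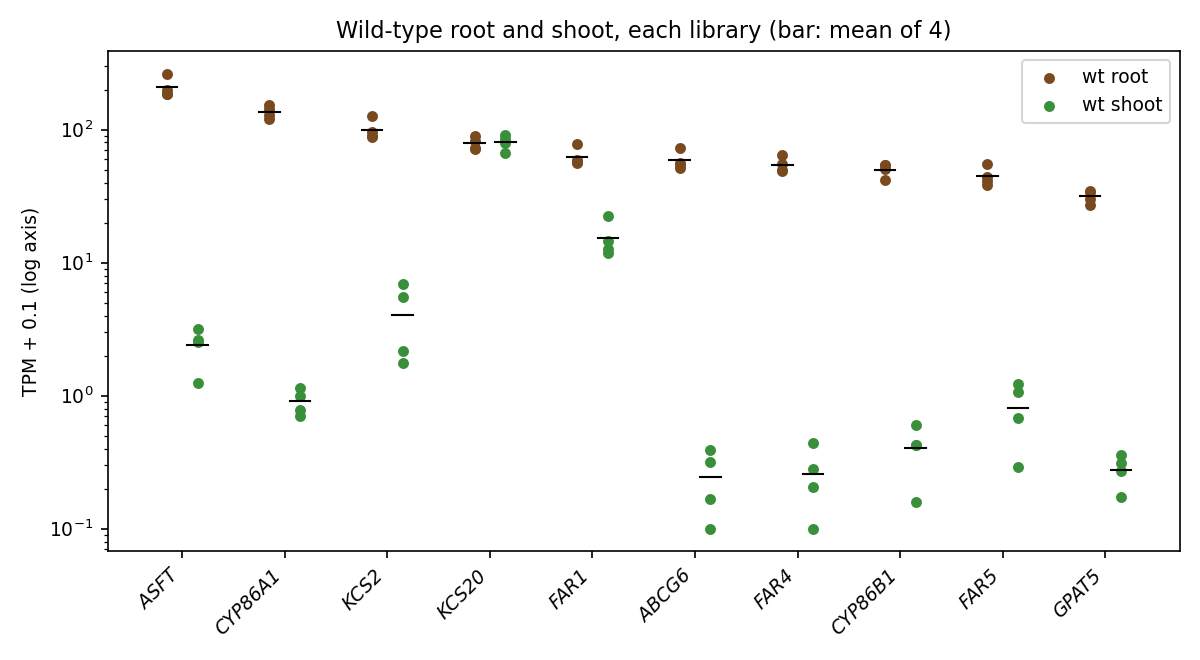
Levels of the 10 suberin genes in wt seedlings, in TPM plus 0.1 on a log axis, with 1 point per library (4 root and 4 shoot libraries per gene) and a bar at the mean; genes run from the highest to the lowest root mean. KCS20 stood at 78.8 TPM in wt roots and 80.3 TPM in wt shoots, and FAR1 at 62.4 and 15.2 TPM, whereas ABCG6, FAR4, GPAT5 and CYP86B1 stood under 1 TPM in wt shoots.

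In bz1728 roots all 10 suberin genes fell relative to wt roots, by 1.85-fold to 3.15-fold, and in each of them the 4 bz1728 libraries lay below the 4 wt libraries. This comparison sets roots of the line labelled with both bzip insertions against wt roots, and the part of either factor was not tested. The level summed over the members was 397 to 645 CPM in bz1728 roots, against 1013 to 1379 CPM in wt roots. Their median log2 fold change was -1.33, against 0.018 over all loci, and 38.9% of the 18745 loci were called in this comparison, and 20.7% were called lower. Over all loci, the libraries of the 2 genotypes did not overlap in 36.2% of cases, and in 18.9% all bz1728 libraries lay below all wt libraries. The members stood at 10 of 10 lower beside that background. Because they were chosen with earlier results of these data known, this contrast is a description. Tests are edgeR quasi-likelihood tests on 20 root libraries with Benjamini-Hochberg adjustment over all tested loci, and changes are log2 fold changes ± approximate standard error. In whole roots, fewer cells of a type and less RNA per cell cannot be told apart.

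GPAT5 (AT3G11430; chr3:3595694-3597952) encodes the acyltransferase that joins suberin acyl chains to glycerol. It stood at 13.5, 11.8, 16.3 and 15.4 CPM in bz1728 roots, against 36.5, 40.5, 46.6 and 45.5 CPM in wt roots, which is 3.03-fold lower (-1.60 ± 0.14, edgeR adjusted p = 7e-11). The highest bz1728 library lay below the lowest wt library by more than the whole range of the bz1728 libraries.

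The 3 fatty acyl reductases make the primary alcohols of suberin, each with its own preferred chain length. FAR1 (AT5G22500; chr5:7470328-7474133) stood at 36.6, 34.6, 41.9 and 41.4 CPM in bz1728 roots, against 73.0, 71.1, 98.6 and 74.0 CPM in wt roots (-1.04 ± 0.11, adjusted p = 2.8e-08). FAR4 (AT3G44540; chr3:16123426-16128030) had 37.0, 35, 37.7 and 53.2 CPM in bz1728 roots, against 82.5, 79.7, 107 and 89.9 CPM in wt roots (-1.17 ± 0.12, adjusted p = 1.6e-08). FAR1 was 2.06-fold and FAR4 2.24-fold lower, and replicate 4 of bz1728 stood apart from the other 3 for FAR4. FAR5 (AT3G44550; chr3:16137576-16142270), separated from FAR4 by 1 gene on the chromosome, had 27.2, 28.3, 31.4 and 41.2 CPM in bz1728 roots, against 87.5, 75.1, 110 and 80.7 CPM in wt roots. Its change, -1.49 ± 0.15 (adjusted p = 1.4e-07), was the largest of the 3; whether the reductases differed from each other was not tested.

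The cytochromes P450 oxidise the far end of the acyl chain, CYP86A1 on chains of common length and CYP86B1 on very long chains. CYP86A1 (AT5G58860; chr5:23765791-23768111) stood at 82.1, 49.2, 71.5 and 107 CPM in bz1728 roots, against 161, 149, 191 and 178 CPM in wt roots (-1.16 ± 0.17, adjusted p = 3.8e-05). CYP86B1 (AT5G23190; chr5:7803141-7805968) had 23.5, 19.0, 23.3 and 39.4 CPM in bz1728 roots, against 86.3, 66.4, 86.1 and 80.7 CPM in wt roots. At -1.66 ± 0.19 (3.15-fold, adjusted p = 1.8e-06) it had the largest change of the set, and the bz1728 libraries of both genes were spread widely. ASFT (AT5G41040; chr5:16431304-16433305), which transfers ferulic acid to suberin monomers, had the smallest: 122, 101, 129 and 168 CPM in bz1728 roots, against 212, 210, 303 and 226 CPM in wt roots (-0.88 ± 0.17, adjusted p = 0.00051).

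KCS2 and KCS20 are paralogous 3-ketoacyl-CoA synthases that elongate fatty acids to very long chains. KCS2 (AT1G04220; chr1:1119699-1122786) stood at 40.3, 32.1, 54.1 and 68.3 CPM in bz1728 roots, against 125, 120, 175 and 132 CPM in wt roots (-1.55 ± 0.23, adjusted p = 3.9e-05). KCS20 (AT5G43760; chr5:17585523-17588733) had 53.3, 54.5, 70.2 and 68.0 CPM in bz1728 roots, against 125, 109, 135 and 108 CPM in wt roots (-0.97 ± 0.10, adjusted p = 4.1e-09). KCS2 was 2.92-fold lower and KCS20 1.95-fold lower, and as TPM the ratio of KCS20 to KCS2 was 0.909 to 1.55 in bz1728 roots, against 0.703 to 0.918 in wt roots, a contrast read after the values were seen and not tested. ABCG6 (AT5G13580; chr5:4370692-4373201), an ABC transporter needed for a normal root suberin barrier, had 31, 31, 32.9 and 42.6 CPM in bz1728 roots, against 90.5, 93.5, 127 and 97.8 CPM in wt roots. It was 3.02-fold lower (-1.60 ± 0.19, adjusted p = 4.9e-06).

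Shared sequence limits some of these readings. KCS2 and KCS20 share 25 stretches of 31 bases, 1.24% of those in KCS2, and the remaining members share at most 5.3% with any other locus in the tables. That largest overlap is between FAR1 and AT5G22505 on the opposite strand, which had 0 counts in root. The annotation also places a long non-coding RNA, AT1G04247, on the strand opposite KCS2, where it overlaps 59.7% of the KCS2 stretches, and another, AT3G06845, opposite 7.1% of FAR4. Neither is listed in the tables and the sources used here do not state how strand was treated in counting, so antisense reads cannot be told apart from KCS2 or FAR4 reads.

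**Figure D2:**
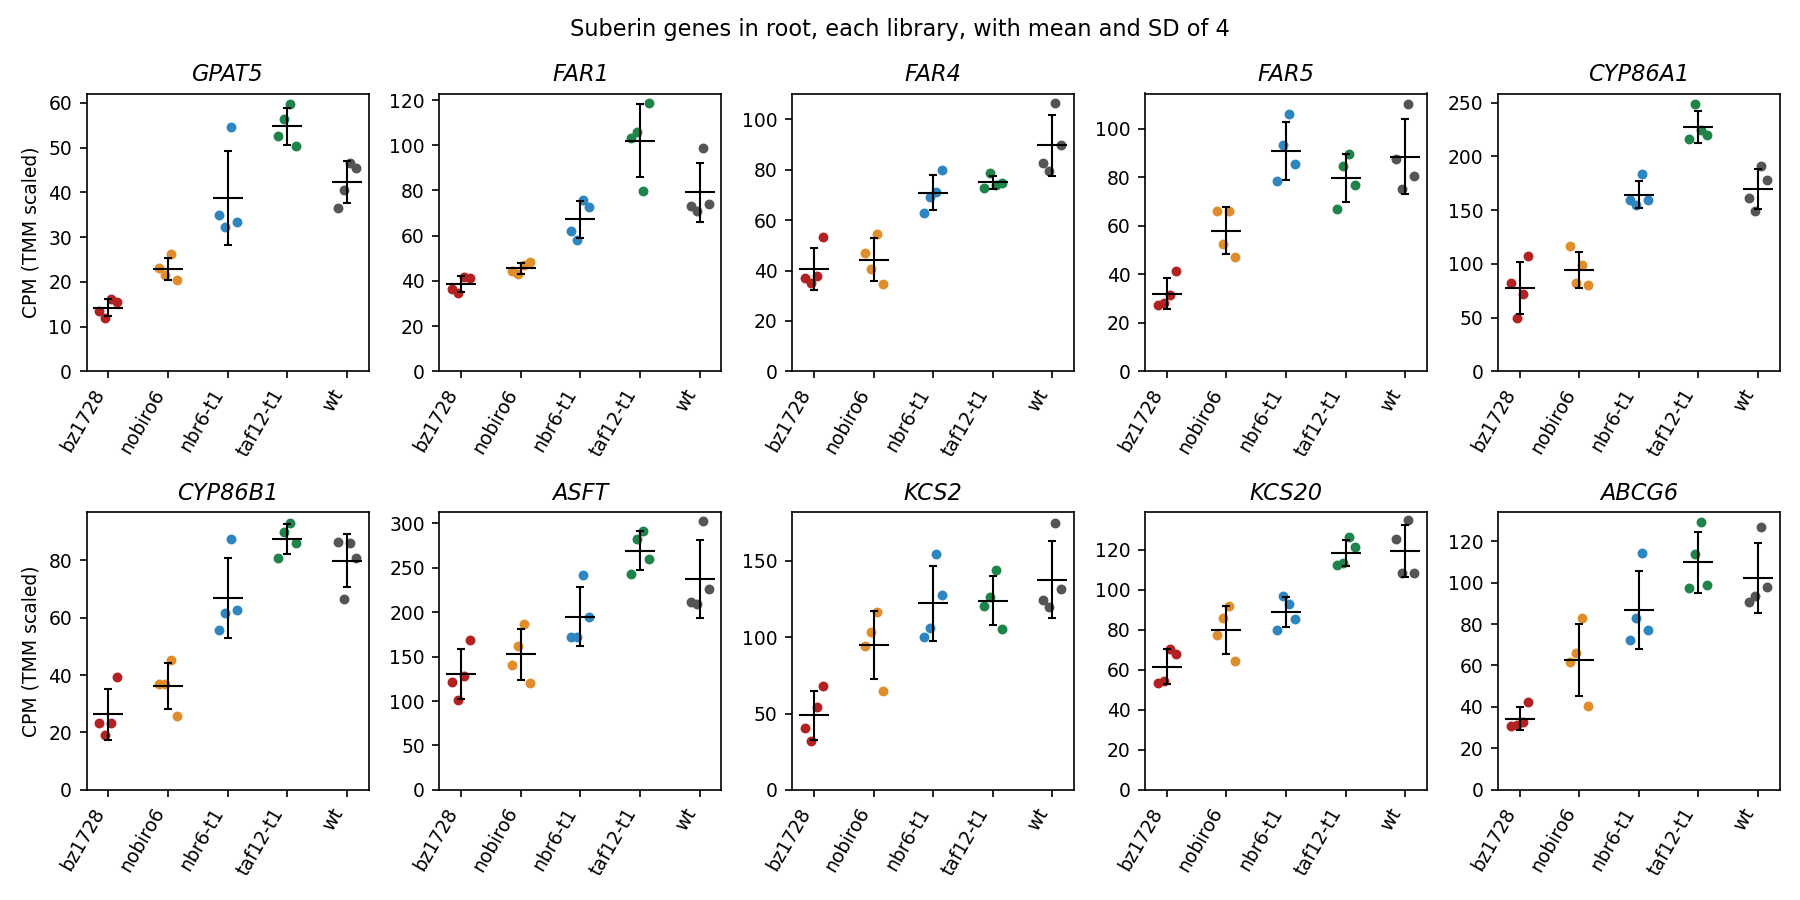
CPM (with TMM factors) of the 10 suberin genes in root, with 1 point per library, 4 per genotype, and bars for the mean and SD; each gene has its own axis starting at 0. In every panel the bz1728 and nobiro6 points lie below the wt points, with GPAT5 at 14.3 ± 1.99 in bz1728, 22.8 ± 2.48 in nobiro6 and 42.3 ± 4.67 in wt.

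Other genes of the pathway fell with them in bz1728 roots. Among 8 further synthesis genes 7 were tested and all 7 were lower than in wt roots, with a median log2 fold change of -1.06. They include FACT, the caffeoyl transferase that is a relative of ASFT (-1.19 ± 0.10), the acyl-CoA synthetase gene LACS2 (-1.19 ± 0.15), the elongase gene KCS1 (-1.06 ± 0.13) and the elongation complex gene CER10 (-0.69 ± 0.07; largest edgeR adjusted p of these 4 = 1.2e-06). In the list for export and assembly 7 of 9 tested genes were lower and 0 higher. The ABC transporter gene ABCG2 changed by -1.57 ± 0.13 (adjusted p = 1.1e-10), the GDSL lipase gene AT1G74460 by -1.88 ± 0.18 (adjusted p = 1.9e-07) and the lipid-transfer protein gene AT2G48130 by -1.19 ± 0.13 (adjusted p = 4.3e-07). Cutin synthesis genes, relatives that make the polyester of the shoot surface, were lower in 6 of 8 cases and higher in 0, with GPAT4 at -1.55 ± 0.18 and CYP86A8 at -1.29 ± 0.14 (largest adjusted p of both 3.7e-06).

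Transcription factors linked to suberin were lower in 7 of 10 cases and higher in 1. WRKY9 fell to 14.5 CPM in bz1728 roots, against 36.5 CPM in wt roots (-1.28 ± 0.14, edgeR adjusted p = 1.4e-09), and NAC046 (-0.94 ± 0.14), MYB93 (-0.82 ± 0.16) and MYB41 (-1.20 ± 0.25; largest adjusted p of these 3 = 0.00022) also fell. MYB92 was the member that rose (0.31 ± 0.10, adjusted p = 0.013). The phenylpropanoid genes, which supply the ferulic acid used by ASFT but also lignin, split into 3 higher and 4 lower of 8. The first enzyme gene PAL1 changed by -0.59 ± 0.08 (adjusted p = 2.7e-07) and the methyltransferase gene CCoAOMT1 by 0.50 ± 0.06 (adjusted p = 6e-08).

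Markers of root cell types moved as well. Of 10 endodermis and Casparian strip genes 5 were lower and 2 higher in bz1728 roots than in wt roots, with a median log2 fold change of -0.14 and a summed level of 517 to 642 CPM, against 558 to 649 CPM in wt roots, and no defining marker was at 0. The membrane scaffold gene CASP4 (-1.26 ± 0.15, edgeR adjusted p = 2.6e-08) was lower, whereas MYB36, the regulator that switches on Casparian strip genes, was higher (0.65 ± 0.10, adjusted p = 2.4e-06). All 5 root hair markers were higher, led by the regulator RSL4 (1.74 ± 0.18, adjusted p = 4.9e-09), and summed to 247 to 381 CPM, against 131 to 138 CPM in wt roots. All 3 root cap markers were higher (21.6 to 30.8 CPM, against 13.0 to 16.3 CPM in wt roots), and 2 of 4 meristem markers were higher and 0 lower (32.0 to 40.9 CPM, against 22.8 to 32.7 CPM). Xylem markers were lower in 3 of 4 cases, led by the cellulose synthase gene IRX3 (-1.53 ± 0.15, adjusted p = 1e-08; 96.0 to 161 CPM, against 242 to 287 CPM in wt roots) and phloem markers in 2 of 2 (23.7 to 35.1 CPM, against 41.4 to 46.8 CPM). Green tissue markers were lower in 1 of 3 cases (29.7 to 70.2 CPM, against 74.2 to 84.8 CPM in wt roots). The part of these shifts in the fall of the suberin genes was not tested.

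In nobiro6 roots the suberin genes stood above bz1728 roots but still below wt roots. Against bz1728, 5 of the 10 rose (GPAT5, FAR5, KCS2, KCS20 and ABCG6), while 31.7% of all loci were called in this comparison and 12.8% were called higher. All 10 estimates were above 0, with a median of 0.48, against 0.026 over all loci. Their summed level was 546 to 816 CPM in nobiro6 roots, against 397 to 645 CPM in bz1728 roots. The same bz1728 libraries served in the comparison with wt roots, and the members were chosen with earlier results of these data known. This contrast is therefore a description as well.

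KCS2 had the largest rise: 94.5, 104, 117 and 64.4 CPM in nobiro6 roots, against 40.3, 32.1, 54.1 and 68.3 CPM in bz1728 roots (1.03 ± 0.23, edgeR adjusted p = 0.0028). ABCG6 stood at 61.7, 65.9, 82.7 and 40.4 CPM in nobiro6 roots, against 31, 31, 32.9 and 42.6 CPM in bz1728 roots (0.92 ± 0.21, adjusted p = 0.0025). In both genes replicate 4 of nobiro6 fell within the bz1728 range. FAR5 had 66.3, 52.7, 65.9 and 47.2 CPM in nobiro6 roots, against 27.2, 28.3, 31.4 and 41.2 CPM in bz1728 roots (0.90 ± 0.16, adjusted p = 0.0002), and GPAT5 had 23.1, 21.6, 26.1 and 20.4 CPM in nobiro6 roots, against 13.5, 11.8, 16.3 and 15.4 CPM in bz1728 roots (0.71 ± 0.16, adjusted p = 0.0006). Their groups did not overlap, nor did those of FAR1, which was not called. The share of all loci without overlap was not worked out for nobiro6 against bz1728. KCS20 rose least among the 5, at 77.2, 85.8, 92.0 and 64.4 CPM in nobiro6 roots, against 61.5 ± 8.84 CPM in bz1728 roots (0.41 ± 0.10, adjusted p = 0.0026). Its groups overlapped, with replicate 4 of nobiro6 again within the bz1728 range.

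The other 5 members did not pass the test between nobiro6 and bz1728 roots. FAR4 averaged 44.2 ± 8.53 CPM in nobiro6 roots and 40.7 ± 8.38 CPM in bz1728 roots (0.17 ± 0.13, edgeR adjusted p = 0.36), and its neighbour FAR5, with a change of 0.90, passed. As TPM, FAR4 over FAR5 was 0.856 to 0.996 in nobiro6 roots, 1.44 to 1.64 in bz1728 roots and 1.14 to 1.34 in wt roots, a description chosen after its values were seen. FAR1 averaged 45.6 ± 2.43 CPM in nobiro6 roots and 38.6 ± 3.62 CPM in bz1728 roots (0.25 ± 0.12, adjusted p = 0.14), ASFT 152 ± 28.5 and 130 ± 28.1 CPM (adjusted p = 0.29) and CYP86A1 94.4 ± 17.0 and 77.4 ± 24.0 CPM (adjusted p = 0.2). CYP86B1 lay close to the threshold, at 36.2 ± 7.99 CPM in nobiro6 roots and 26.3 ± 9.01 CPM in bz1728 roots (0.55 ± 0.21, adjusted p = 0.057). It passed with DESeq2 (0.50, adjusted p = 0.021), with limma on log2(TPM + 1) (0.51, adjusted p = 0.03), without replicate 4 of bz1728 (0.76, adjusted p = 0.0023) and without replicate 4 of nobiro6 (0.66, adjusted p = 0.024). CYP86A1 also passed without replicate 4 of bz1728 (0.49, adjusted p = 0.024), and FAR1 in a fit of the compared groups alone (0.25, adjusted p = 0.048).

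Relative to wt roots, 9 of 10 members were lower in nobiro6 roots and the groups did not overlap in any of the 10 (42.8% of all loci were called and 23.9% called lower; the groups did not overlap in 38.3% of loci, with nobiro6 below wt in 21.9%). Changes ran from -1.10 ± 0.19 in CYP86B1 to -0.59 ± 0.14 in FAR5 and -0.56 ± 0.10 in KCS20. KCS2 did not pass, at 94.8 ± 22.2 CPM in nobiro6 roots and 138 ± 25.2 CPM in wt roots (-0.51 ± 0.21, edgeR adjusted p = 0.064); it passed without replicate 3 of nobiro6 (-0.64, adjusted p = 0.043). The nobiro6 comparisons with bz1728 and with wt share the nobiro6 libraries, so their values stand side by side and are not independent.

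Around the members, nobiro6 roots differed from bz1728 roots by list. Further suberin synthesis genes were higher in 4 of 7 cases and lower in 0 (PAS2, a dehydratase of elongation, 0.51 ± 0.08; FACT 0.47 ± 0.11, largest edgeR adjusted p 0.0015), and export and assembly genes were higher in 6 of 9 (ABCG11 1.29 ± 0.19 and ABCG2 0.56 ± 0.14, largest adjusted p 0.0038). Cutin genes were higher in 5 of 8 and lower in 1. The regulators were higher in 1 of 10 (WRKY9, 0.72 ± 0.15, adjusted p = 0.00023) and lower in 3, with MYB92 at -0.62 ± 0.11 and MYB107 at -1.54 ± 0.42 (largest adjusted p of both 0.0046). Phenylpropanoid genes were lower in 7 of 8, led by the ligase genes 4CL2 (-1.32 ± 0.08) and 4CL1 (-1.27 ± 0.08). Among cell type markers, xylem genes were higher in 3 of 4 (178 to 226 CPM in nobiro6 roots, against 96.0 to 161 CPM in bz1728 roots). Endodermis genes were lower in 5 of 10 and higher in 1 (447 to 505 CPM, against 517 to 642 CPM). Those lower include AT4G20140 (-0.66, edgeR adjusted p = 2.3e-07) and MYB36 (-0.59, adjusted p = 3.1e-05), and the 1 higher was CASP5 (1.94 ± 0.27). Root hair genes were lower in 1 of 5 (227 to 300 CPM, against 247 to 381 CPM) and root cap genes in 1 of 3 (21.0 to 27.2 CPM, against 21.6 to 30.8 CPM), whereas phloem genes were called in 0 of 2 (18.6 to 33.0 CPM, against 23.7 to 35.1 CPM in bz1728 roots). Meristem genes were higher in 1 of 4 and lower in 1 (30.1 to 40.4 CPM, against 32.0 to 40.9 CPM), and green tissue genes were higher in 1 of 3 (62.7 to 89.8 CPM, against 29.7 to 70.2 CPM in bz1728 roots). The part of these markers in the rise of the suberin genes was not tested.

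**Figure D3:**
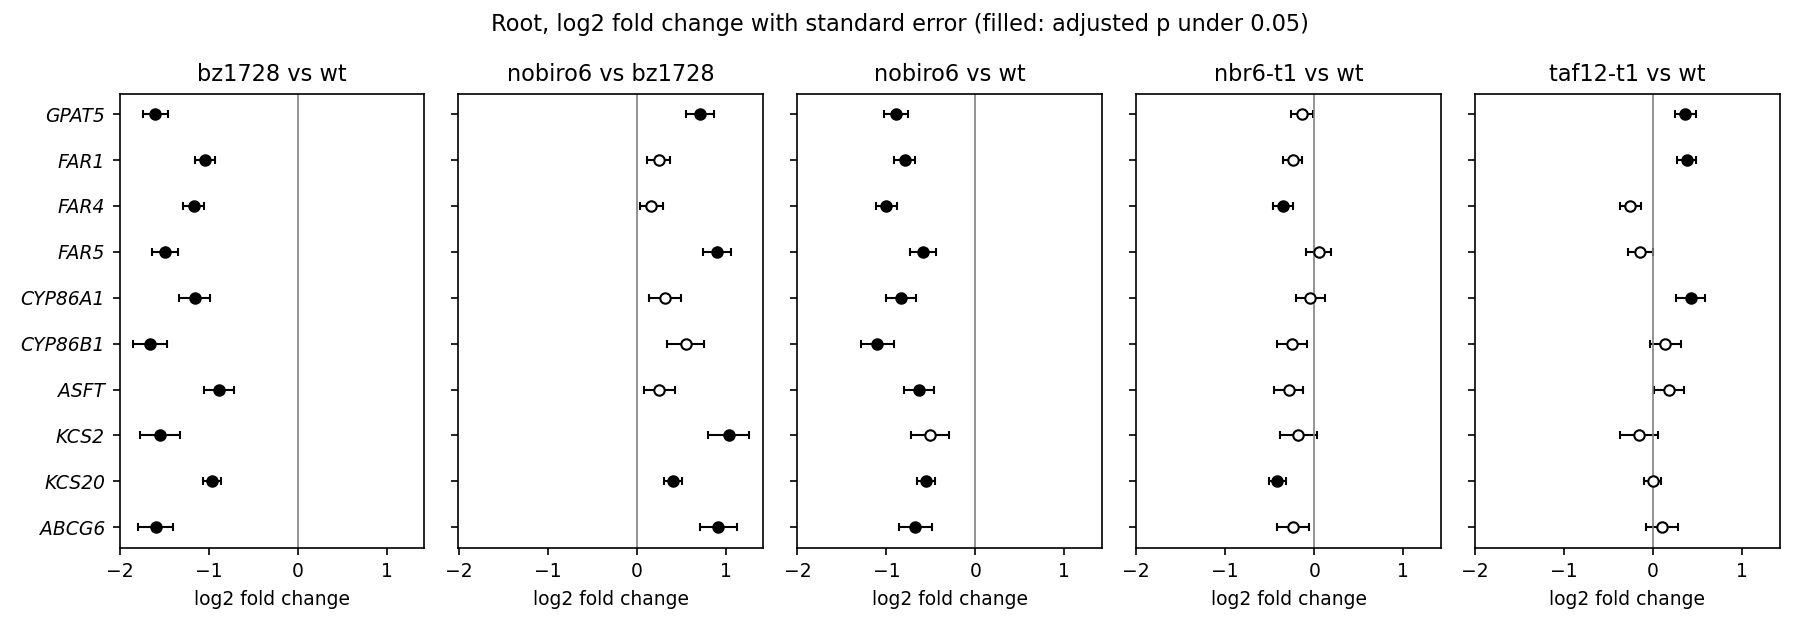
Log2 fold changes in root, with bars for the approximate standard error, for 10 suberin genes in 5 comparisons; filled points have an edgeR adjusted p under 0.05. All 10 points are filled and below 0 for bz1728 against wt, 5 are filled and above 0 for nobiro6 against bz1728, and for nbr6-t1 and taf12-t1 against wt all lie between -0.42 and 0.42.

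In the TFIID lines the share of members called was not far from that of all loci, so the counts alone set the members apart in neither line. In nbr6-t1 roots 2 of 10 members were lower than in wt roots and 0 higher, where 20.5% of all loci were called with 13.5% lower and 6.96% higher. Of the 10 estimates 9 were below 0, with a median of -0.24, against 0.022 over all loci. That shift of the set was not tested. KCS20 stood at 80.1, 96.7, 93.1 and 85.3 CPM in nbr6-t1 roots, against 125, 109, 135 and 108 CPM in wt roots, without overlap (-0.42 ± 0.10, edgeR adjusted p = 0.0022). FAR4 had 62.9, 69.2, 71.4 and 79.7 CPM in nbr6-t1 roots, against 82.5, 79.7, 107 and 89.9 CPM in wt roots, and the groups met at their edge (-0.35 ± 0.11, adjusted p = 0.029). The FAR4 call was lost with limma on log2(TPM + 1) (-0.30, adjusted p = 0.12), without replicate 3 (-0.26, adjusted p = 0.1) or replicate 4 (-0.35, adjusted p = 0.063) of wt, and without replicate 1 (-0.29, adjusted p = 0.11) or replicate 2 (-0.34, adjusted p = 0.07) of nbr6-t1. Replicate 3 of nbr6-t1 was the highest for 8 of 10 members, and without it 4 members were called lower, GPAT5 (-0.36, adjusted p = 0.015) and FAR1 (-0.33, adjusted p = 0.048) among them. GPAT5 had 54.5 CPM in that library and 32.2 to 35 CPM in the other 3. Among markers, root hair genes were higher in 4 of 5 (191 to 209 CPM in nbr6-t1 roots, against 131 to 138 CPM in wt roots), endodermis genes were higher in 1 and lower in 2 of 10 (565 to 603 CPM, against 558 to 649 CPM), phloem genes lower in 1 of 2 (31.6 to 36.2 CPM, against 41.4 to 46.8 CPM) and green tissue genes higher in 2 of 3 (104 to 124 CPM, against 74.2 to 84.8 CPM). Xylem, meristem and root cap genes were called in 0 cases, and the part of any of these in the members' values was not tested.

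In taf12-t1 roots 3 members were higher than in wt roots and 0 lower, where 39.2% of all loci were called, 19.5% higher and 19.8% lower. The estimates were above 0 for 6 members and below for 4, with a median of 0.12, against 0.001 over all loci. GPAT5 stood at 52.5, 56.4, 59.7 and 50.5 CPM in taf12-t1 roots, against 36.5, 40.5, 46.6 and 45.5 CPM in wt roots (0.36 ± 0.12, edgeR adjusted p = 0.018). CYP86A1 had 216, 248, 224 and 220 CPM in taf12-t1 roots, against 161, 149, 191 and 178 CPM in wt roots (0.42 ± 0.16, adjusted p = 0.049). Neither gene overlapped between the groups, and FAR4, which lay lower, did not overlap either. The share of all loci without overlap was not worked out for this comparison. FAR1 had 103, 106, 79.9 and 119 CPM in taf12-t1 roots, against 73.0, 71.1, 98.6 and 74.0 CPM in wt roots, with overlap (0.38 ± 0.11, adjusted p = 0.0061). FAR4 lay the other way, at 72.8, 78.7, 73.8 and 74.8 CPM in taf12-t1 roots, against 82.5, 79.7, 107 and 89.9 CPM in wt roots, and did not pass (-0.25 ± 0.12, adjusted p = 0.083). It passed in a fit of the compared groups alone (-0.26, adjusted p = 0.013) and without replicate 2 of wt (-0.31, adjusted p = 0.045). As TPM, FAR1 over FAR4 was 1.41 to 2.06 in taf12-t1 roots and 1.07 to 1.20 in wt roots, a description chosen after its values were seen.

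The 3 calls in taf12-t1 were lost with limma on log2(TPM + 1), which differs from edgeR in both scale and test. There 0 of the 3 passed (GPAT5 0.23, FAR1 0.22 and CYP86A1 0.29, adjusted p 0.14 to 0.18), and FAR4 was the 1 member called, as lower (-0.38, adjusted p = 0.024). That scale moved the median of all loci by -0.13 on the log2 scale, and the share of called loci that were higher came to 25.7%, against 49.6% with TMM factors. CYP86A1 also missed the threshold with DESeq2 (0.42, adjusted p = 0.052), with RLE size factors (0.42, adjusted p = 0.052) and with no filter (0.41, adjusted p = 0.071), and without any 1 of 7 of the 8 libraries it stood at 0.36 to 0.45 and missed as well. That held for each of the 8 except replicate 3 of wt. GPAT5 missed without replicate 1 (0.31, adjusted p = 0.056) or replicate 2 (0.33, adjusted p = 0.053) of wt or replicate 3 of taf12-t1 (0.32, adjusted p = 0.058), and FAR1 without replicate 4 of taf12-t1 (0.29, adjusted p = 0.05).

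In taf12-t1 roots larger shares were called of the lists for further synthesis and for export and assembly than of the members. Of the suberin regulators a smaller share was called, 2 of 10, against 3 of 10 members. These differences from the members were not tested. Against wt roots, export and assembly genes were higher in 8 of 9 cases (ABCG11 1.01 ± 0.18, ABCG20 0.70 ± 0.16, largest edgeR adjusted p of both 0.00064), further synthesis genes in 5 of 7 (LACS2 0.71 ± 0.13, adjusted p = 0.00018) and phenylpropanoid genes in 8 of 8, with 0 lower in each list. The regulators WRKY9 (-0.82 ± 0.14) and NAC046 (-0.62 ± 0.14; largest adjusted p 0.00085) were lower, and the other 8 were not called. Cutin genes were higher in 3 of 8 (BDG1 1.43 ± 0.23). Endodermis genes were higher in 3 of 10 (594 to 707 CPM in taf12-t1 roots, against 558 to 649 CPM in wt roots), xylem genes in 2 of 4 (294 to 392 CPM, against 242 to 287 CPM), meristem genes in 3 of 4 (30.0 to 45.9 CPM, against 22.8 to 32.7 CPM) and phloem genes in 1 of 2 (50.4 to 66.6 CPM, against 41.4 to 46.8 CPM). Root hair genes were lower in 2 of 5 (106 to 142 CPM, against 131 to 138 CPM in wt roots), root cap genes were called in 0 of 3 (18.6 to 27.7 CPM, against 13.0 to 16.3 CPM), and green tissue genes were lower in 1 of 3 (37.5 to 65.0 CPM, against 74.2 to 84.8 CPM in wt roots). The part of these markers in the members' values was not tested. In nbr6-t1 roots phenylpropanoid genes were lower in 7 of 8, while the further synthesis genes were called in 0 of 7 (median -0.06).

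Set directly against nbr6-t1 roots, taf12-t1 roots had 5 members higher and 0 lower (47.2% of all loci called, 24.7% called higher). The estimates were above 0 for 9 members and below for 1, with a median of 0.40, against 0.0036 over all loci. FAR1 differed most, at 102 ± 16.1 CPM in taf12-t1 roots and 67.2 ± 8.31 CPM in nbr6-t1 roots (0.62 ± 0.11, edgeR adjusted p = 4.8e-05), followed by GPAT5 (0.50 ± 0.13, adjusted p = 0.0016), CYP86A1 (0.47 ± 0.16, adjusted p = 0.028), ASFT (0.47 ± 0.17, adjusted p = 0.032) and KCS20 (0.42 ± 0.10, adjusted p = 0.001). On log2(TPM + 1) in limma the calls of CYP86A1, ASFT and KCS20 were lost (adjusted p 0.066 to 0.12) and FAR5 was called lower (-0.35, adjusted p = 0.038); that scale moved the median of all loci by -0.16. ASFT was also lost without replicate 1, 2 or 4 of nbr6-t1 or replicate 2 or 3 of taf12-t1 (0.41 to 0.48, adjusted p 0.052 to 0.088), and CYP86A1 without replicate 1 or 2 of nbr6-t1 or replicate 2 of taf12-t1 (0.44 to 0.45, adjusted p 0.059 to 0.066), so that 3 calls were left without replicate 1 or 2 of nbr6-t1 or replicate 2 of taf12-t1.

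A contrast of contrasts asked whether the difference of nobiro6 from bz1728 was unequal to that of nbr6-t1 from wt. TAF12B itself stood at 26.2 ± 2.56 CPM in nobiro6 roots and 43.3 ± 2.53 CPM in bz1728 roots (-0.73, edgeR adjusted p = 2.4e-07). In roots labelled nbr6-t1 it stood at 58.8 ± 4.8 CPM, against 53.1 ± 5.32 CPM in wt roots (0.15, adjusted p = 0.2). The nbr6-t1 difference thus came without a fall of TAF12B in root, and the part of TAF12B in this contrast was not tested. The contrast was above 0 for all 10 members and passed for 5, where 11% of loci were called, 4.81% above 0 and 6.21% below. It was 1.21 ± 0.31 for KCS2 (edgeR adjusted p = 0.019), 1.16 ± 0.27 for ABCG6 (adjusted p = 0.01), 0.85 ± 0.20 for GPAT5 (adjusted p = 0.0039), 0.85 ± 0.21 for FAR5 (adjusted p = 0.011) and 0.83 ± 0.14 for KCS20 (adjusted p = 0.00017). KCS20 itself rose in nobiro6 against bz1728 and fell in nbr6-t1 against wt. Without replicate 2 of wt 8 members passed. The contrast uses the bz1728 and wt libraries, between which all 10 members differed, and the members were chosen with earlier results known. Its shared sign is therefore a description. BZIP28 was present in nobiro6 and absent in bz1728, and its part in this contrast was not tested.

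**Figure D4:**
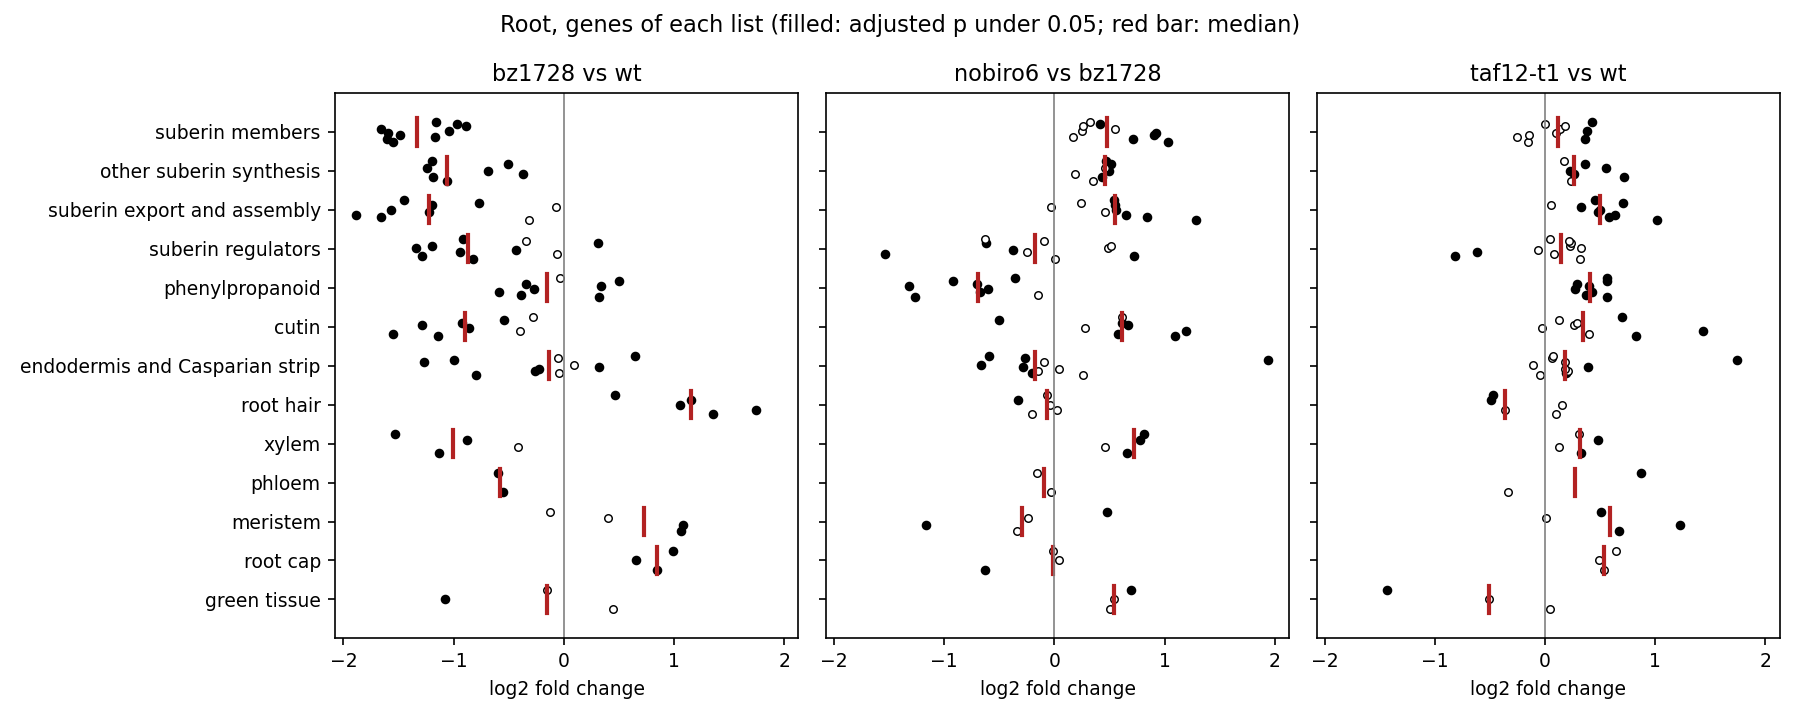
Log2 fold changes in root for the tested genes of 13 lists in 3 comparisons, 1 point per gene, filled where the edgeR adjusted p was under 0.05, with a red bar at the median of the list. The members and the lists of synthesis and of export and assembly lie below 0 for bz1728 against wt, with members at a median of -1.33 and further synthesis genes at -1.06, while root hair genes lie above 0 (median 1.16).

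In shoots 5 members were measured above the filter (FAR1, CYP86A1, ASFT, KCS2 and KCS20). Of these, edgeR called 1 in bz1728 against wt, 2 in nobiro6 against bz1728 and 2 in nobiro6 against wt, beside 17.8%, 21% and 12.1% of all loci. Against wt shoots, KCS20 fell to 110, 88.7, 93.4 and 102 CPM in bz1728 shoots, against 183, 166, 137 and 161 CPM in wt shoots (-0.72 ± 0.12, edgeR adjusted p = 0.00045), and it was the 1 member of 5 called (9.42% of loci called lower and 8.4% higher). It rose in nobiro6 shoots, at 167, 212, 135 and 180 CPM, against those bz1728 values (0.82 ± 0.13, adjusted p = 8.9e-05; 8.12% of loci called higher), and stood at 173 ± 31.9 CPM in nobiro6 shoots and 162 ± 18.9 CPM in wt shoots (adjusted p = 0.66). BZIP28 moved with these values: it stood at 26.9 CPM in nobiro6 shoots, 0 in bz1728 shoots and 34.5 CPM in wt shoots (nobiro6 against wt -0.36, edgeR adjusted p = 0.04), and its part in the shoot differences was not tested. FAR1 was lower in nobiro6 shoots (15, 13.9, 15.6 and 12.7 CPM) than in bz1728 shoots (24.6, 24.1, 26.0 and 22.0 CPM; -0.75 ± 0.21, adjusted p = 0.012; 12.8% of loci called lower). FAR1 was also lower in nobiro6 shoots than in wt shoots (-0.83 ± 0.20, adjusted p = 0.0077). ASFT was lower at a low level, 1.60 ± 0.242 CPM in nobiro6 shoots and 3.50 ± 1.20 CPM in wt shoots (-1.14 ± 0.31, adjusted p = 0.018; 8.47% of loci called lower and 3.66% higher). That call was lost without replicate 2 of wt (-0.99, adjusted p = 0.06) or replicate 1 of nobiro6 (-1.06, adjusted p = 0.059). In bz1728 shoots ASFT was called lower than in wt shoots without replicate 1 of wt (-0.95, adjusted p = 0.021) or replicate 2 of bz1728 (-1.03, adjusted p = 0.034).

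CYP86A1 was near the counting limit in shoots, with 30 counts over the 4 nobiro6 libraries, 6 over the 4 bz1728 libraries and 48 over the 4 wt libraries. It had 0.506, 1.62, 0.208 and 4.17 CPM in nobiro6 shoots, against 0, 1.07, 0.141 and 0 CPM in bz1728 shoots, and the groups overlapped (2.32 ± 0.98, edgeR adjusted p = 0.1). The difference passed with DESeq2 (2.44, adjusted p = 0.044), without replicate 2 of bz1728 (4.24, edgeR adjusted p = 0.027) and without replicate 3 of nobiro6 (2.69, edgeR adjusted p = 0.042). Against wt shoots bz1728 shoots stood at -2.08 ± 0.94 (edgeR adjusted p = 0.13), and at -3.98 without replicate 2 of bz1728 (edgeR adjusted p = 0.042). That replicate had the highest bz1728 value (1.07 CPM), so larger changes follow from leaving it out. With 6 counts in bz1728 shoots, CYP86A1 passed the shoot filter through other groups. Its shoot differences from bz1728 are therefore descriptions.

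In nbr6-t1 shoots 0 of 5 members were called by edgeR and 0 by DESeq2, with 2 at an unadjusted p under 0.05 (7.5% of loci called, 1.56% higher and 5.94% lower). In taf12-t1 shoots edgeR called 0 of 5 and DESeq2 1, with 2 at an unadjusted p under 0.05 (40.6% of loci called, 20.3% higher and 20.4% lower). KCS2 came closest, at 13.7 ± 4.93 CPM in taf12-t1 shoots and 7.26 ± 4.49 CPM in wt shoots (0.86 ± 0.35, edgeR adjusted p = 0.059; DESeq2 0.90, adjusted p = 0.035), and it passed without replicate 2 (1.18) or replicate 3 (1.07) of wt or replicate 1 of taf12-t1 (1.05). FAR1 passed without replicate 1 of wt (0.62, adjusted p = 0.0018).

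The bz1728 effect was unequal between root and shoot for 2 of the 5 members that could be tested in both tissues. For KCS2 the root change minus the shoot change was -1.54 ± 0.45 (edgeR adjusted p = 0.013) and for FAR1 -0.93 ± 0.22 (adjusted p = 0.0021), where 23% of loci were called, 10.9% below 0 and 12% above. FAR1 stood at 24.2 ± 1.66 CPM in bz1728 shoots and 25.7 ± 8.22 CPM in wt shoots, while its root level fell. KCS20, with a change of -0.97 in root and -0.72 in shoot, gave a difference of -0.21 ± 0.16 (adjusted p = 0.4). FAR1 and KCS2 were also the 2 called on log2(TPM + 1) in limma (largest adjusted p = 0.00034). The other 5 members lay below the shoot filter and are not counted here. The same contrast for taf12-t1 called 0 of the 5 by edgeR and 0 by DESeq2, with 1 at an unadjusted p under 0.05 (20.3% of loci called, 9.8% above 0 and 10.5% below). That 1 was KCS2 (-0.95 ± 0.41, edgeR adjusted p = 0.1), which passed with limma on log2(TPM + 1) (-1.08, adjusted p = 0.035) and without replicate 2 of wt shoots (-1.24, edgeR adjusted p = 0.036).

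Within a genotype the suberin genes moved together from library to library. In bz1728 roots replicate 4 was the highest for 7 of 10 members and replicate 2 the lowest for 7. In nobiro6 roots replicate 4 was the lowest for 9 and replicate 3 the highest for 7. Replicate 3 was also the highest for 8 in nbr6-t1 roots, for 7 in taf12-t1 roots and for 9 in wt roots. In bz1728 roots replicate 3 was the highest for 3. The summed level was 1379 CPM in replicate 3 of wt and 1013 to 1113 CPM in the other 3. As a description over 20 root libraries that share depth and genotype, Pearson's r between pairs of members ran from 0.76 to 0.96 (median 0.90, 45 pairs). After the genotype mean was taken out it ran from 0.18 to 0.94 (median 0.73). ASFT and KCS2 were the closest pair (0.94), and FAR1 followed the others least, with a median of 0.35.

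**Figure D5:**
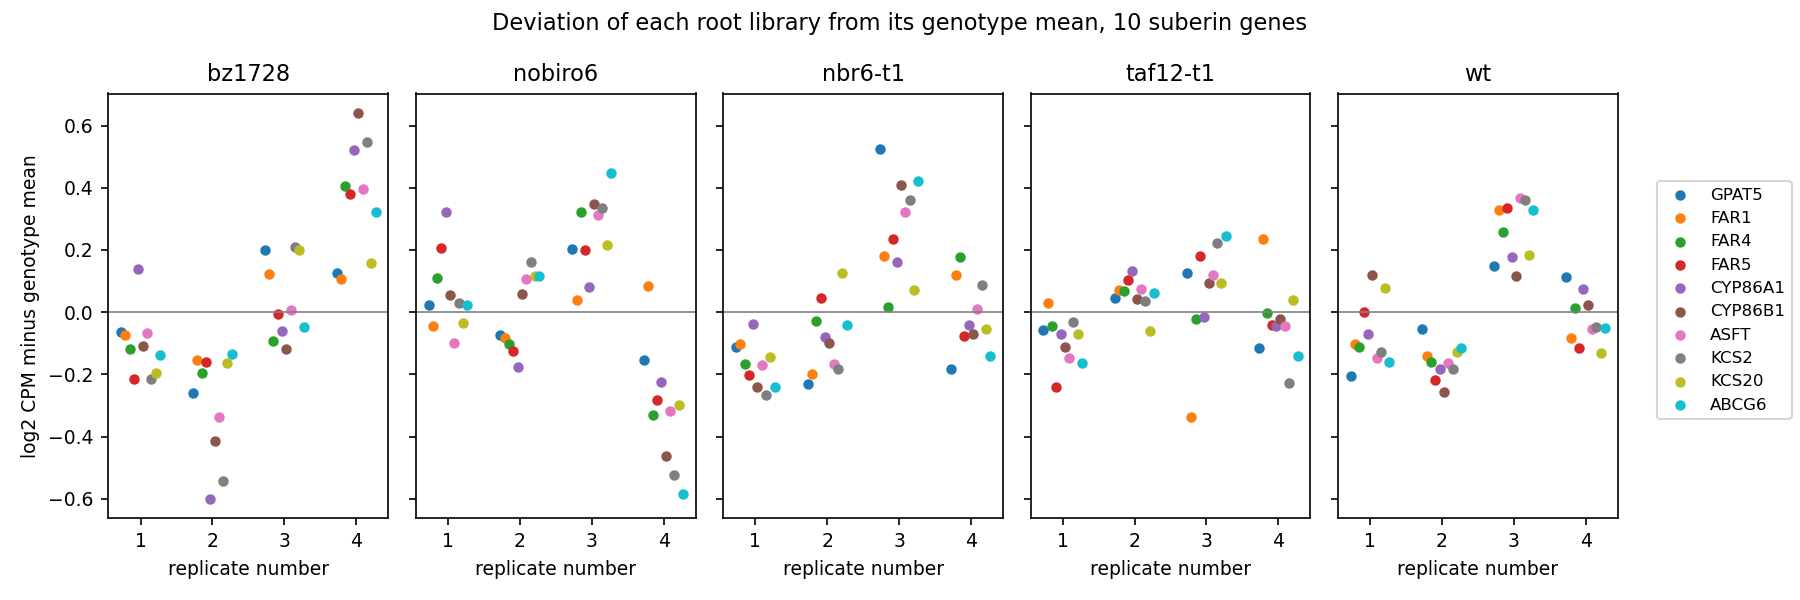
Deviation of each root library from the mean of its genotype, in log2 CPM, for 10 suberin genes (colours), in 5 genotypes with 4 libraries each. The points of a library lie mostly on the same side of 0: in nobiro6 replicate 4 was the lowest for 9 of 10 genes, and in wt replicate 3 was the highest for 9.

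Among 18050 other loci expressed at a mean log2 CPM of 1 or more, the profile most like the mean of the 10 members over the 20 root libraries was that of AT5G12420, annotated as a WSD1-like O-acyltransferase (r = 0.99). Next came AT2G22510, a hydroxyproline-rich glycoprotein gene (0.98), the lipid-transfer protein genes EDA4 and AT2G48130 (0.98 each), the glycoprotein genes AT4G38080 and PELPK1 (0.98 each), KCS1 (0.98) and AT4G24130 (0.98). AT5G12420 changed by -1.65 in bz1728 against wt roots, 0.72 in nobiro6 against bz1728 roots and 0.14 in taf12-t1 against wt roots, on the log2 scale. Taken singly, GPAT5 was most like KCS1 (0.97), CYP86A1 most like AT1G74460 (0.98) and KCS20 most like CYP86A8 (0.95). ABCG6 was most like AT4G36610, an alpha/beta hydrolase gene (0.98), and ASFT most like the lipid-transfer protein gene AT3G22600 (0.97). CYP86B1 was most like PELPK1 (0.98), FAR5 like PELPK2 (0.95), KCS2 like AT3G06390 (0.97), FAR1 like the proline-rich protein gene PRP4 (0.96) and FAR4 like the myosin gene HDK (0.95).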

How the data were processed

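Root and shoot mRNA of 5 genotypes was sequenced, 4 libraries per group. Per the submitters' processing notes, the authors trimmed reads with Trimmomatic 0.39 and ran kallisto 0.44.0. Each abundance table, as deposited, gives expected counts (unscaled estimated counts, 1 transcript per locus) and, per the file headers, TPM, which corrects for transcript length and library total. The build and strand setting were not given in the sources used here; 27443 of 27445 deposited transcript lengths equal those of TAIR10.1 transcripts, the RefSeq build used for names, positions and promoters.

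After rounding, the expected counts went into edgeR 4.0.16 under R 4.3.3, with TMM factors, filterByExpr (count 10, total 15), robust quasi-likelihood F-tests (two-sided) and Benjamini-Hochberg adjustment over all loci of the fit; an adjusted p under 0.05 was called. Each tissue was 1 fit of 20 libraries (40 across tissues). Standard errors are approximate: the log2 fold change over the root of its F statistic. CPM are counts scaled with TMM factors of the tissue. Alternatives were DESeq2 1.42.0 and its size factors, no filter, a replicate block, limma 3.58.1 on log2(TPM + 1), only the compared groups, and leaving out each library. The method was tested on simulated data.

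The members and lists were chosen with earlier results of these data known. All members were named; from each list up to 4 genes with the smallest adjusted p in bz1728 against wt, nobiro6 against bz1728 or taf12-t1 against wt in root could be named, and for likeness the 8 loci nearest the members' mean. Symbols follow the annotation. No replicate libraries matched within sampling noise (smallest chi-square per degree of freedom 1.76). Protein identity between paralogs was not analysed here. Counting error alone limits low shoot levels, where 1 count stood for up to 0.292 CPM.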

Additional observations from a re-analysis of the deposited data

Results flagged for a closer look

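Of 73 groups of 4 libraries examined, 5 held a library set apart from the other 3 by Dixon's criterion at the 95% level; chance gives about 1 in 20. They were GPAT5 in nbr6-t1 roots (replicate 3, 54.5 CPM), FAR1 in wt roots (replicate 3, 98.6 CPM), FAR4 in bz1728 roots (replicate 4, 53.2 CPM), CYP86A1 in nbr6-t1 roots (replicate 3, 183 CPM) and KCS20 in taf12-t1 shoots (replicate 3, the lowest, 136 CPM). The root cases lay in 3 libraries, in each of which 7 to 9 of the 10 members were at their highest.

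The bz1728 change was unequal between root and shoot for FAR1 (root minus shoot -0.93 on the log2 scale) and KCS2 (-1.54). The difference of nobiro6 from bz1728 was unequal to that of nbr6-t1 from wt, in root, for GPAT5 (0.85), FAR5 (0.85), KCS2 (1.21), KCS20 (0.83) and ABCG6 (1.16).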

How the results depend on the processing

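The 10 lower members in bz1728 roots stayed 10 under all 6 other settings and without any of the 8 libraries (log2 fold changes from -1.86, in CYP86B1, to -0.76, in ASFT), and the 5 higher in nobiro6 against bz1728 roots were 5 or 6, or 5 to 7 without a library. The 9 lower in nobiro6 against wt roots were 9 or 10. Counts that moved by over 1.5 times were these; the cause was not tested. With limma on log2(TPM + 1) the count of called members was 1 in nbr6-t1 against wt roots (2 with edgeR), 1 in taf12-t1 against wt roots (3), 3 in taf12-t1 against nbr6-t1 roots (5), 1 in taf12-t1 against wt shoots (0) and 1 for the taf12-t1 effect between tissues (0). DESeq2 called 2 in bz1728 against wt shoots (1) and 1 in taf12-t1 against wt shoots. Without a filter 2 were called in bz1728 against wt shoots. Counts in shoots here also take in members below the main shoot filter, and in both settings the added bz1728 call was such a member. Leaving out 1 library gave 1 to 4 called for nbr6-t1 and 1 to 3 for taf12-t1 against wt roots, 3 to 7 for taf12-t1 against nbr6-t1 roots, 5 to 8 for the contrast of nobiro6 and nbr6-t1, 1 to 4 for bz1728, 1 to 2 for nobiro6 and 0 to 2 for taf12-t1 against wt shoots, and 0 to 1 for the taf12-t1 effect between tissues. The 4 for bz1728 shoots also include a member below the main shoot filter.

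Over all loci, replicate numbers did not pair the libraries (correlations of same-numbered deviations -0.337 to 0.277). Among the 10 members, replicate 3 was the highest for 7 in nobiro6, 8 in nbr6-t1, 7 in taf12-t1 and 9 in wt roots. In bz1728 roots it was the highest for 3. Whether the members followed the replicate number was not tested. With the replicate block 2 members were called in taf12-t1 against wt shoots, 10 in nobiro6 against wt roots and 7 in the contrast of nobiro6 and nbr6-t1, and the estimates of KCS20 in taf12-t1 against wt roots (0.0023) and KCS2 in nobiro6 against wt shoots (0.0011) changed sign near 0.

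Reversed signs were all in uncalled members. With limma on log2(TPM + 1) they were CYP86B1 (-0.0017) and ABCG6 (-0.031) in taf12-t1 against wt roots, FAR4 (-0.082) and KCS2 (-0.14) in taf12-t1 against nbr6-t1 roots, FAR1 in bz1728 (0.085), KCS2 in nobiro6 (0.18) and KCS20 in taf12-t1 (-0.019) against wt shoots, and CYP86A1 for the bz1728 effect between tissues (-0.54). FAR1 for the taf12-t1 effect between tissues was -0.11 with it, -0.035 with RLE size factors and -0.036 with DESeq2. Without 1 library the ranges that crossed 0 were -0.050 to 0.059 for KCS20 in taf12-t1 against wt roots, -0.059 to 0.17 for FAR5 and -0.13 to 0.014 for CYP86A1 in nbr6-t1 against wt roots, and -0.066 to 0.18 for KCS2 in taf12-t1 against nbr6-t1 roots. In shoots against wt they were -0.19 to 0.16 for FAR1 and -0.15 to 0.40 for KCS2 in bz1728, -0.30 to 0.25 for KCS2, -0.0097 to 0.20 for KCS20 and -0.81 to 0.61 for CYP86A1 in nobiro6, and -0.038 to 0.12 for KCS20 in taf12-t1. For ASFT in the bz1728 effect between tissues the range was -0.23 to 0.20, and in the taf12-t1 effect it was -0.22 to 0.14 for FAR1 and -0.099 to 0.051 for KCS20. The TPM scale also moved the share of called loci that were higher from the value with TMM factors: 78.1% against 47.1% in bz1728, 67.7% against 30.2% in nobiro6 and 37.4% against 20.8% in nbr6-t1 shoots, 29.4% against 52.4% in taf12-t1 against nbr6-t1 roots, and 29.9% against 52.5% (bz1728) and 30.1% against 48.2% (taf12-t1) between tissues. It moved the median of all loci by 0.12 in bz1728 and 0.11 in nobiro6 against wt shoots and by -0.15 for the bz1728 and -0.10 for the taf12-t1 effect between tissues.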
